A study of Mus musculus with 12 samples.

Results

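Translation initiation factors were taken here as the genes whose symbol begins with Eif1 to Eif6, after leaving out 4 kinases that phosphorylate eIF2 and 10 rows named as pseudogenes. The rule gave 54 rows of the 55487 in the table, and no symbol was repeated among them. Of these, 48 passed a filter that asked for 1 TPM (a transcript abundance scaled for length and to a common library total) or more in 6 or more libraries, as did 11335 symbols in the whole table. The 6 others were low or listed at 0 in both groups.

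The RNA came from mouse livers (wild type, Balb/c strain, 6 weeks of age). The SAP animals had severe acute pancreatitis (SAP) after caerulein, a cholecystokinin analogue that overstimulates the acinar cells of the pancreas, and gave 6 libraries, SAP 10 to SAP 15. The other 6 libraries, control 3 to control 8, came from animals labelled as control, and the labels state neither the dose, the number of injections nor the time of sampling. The design text speaks of a pair of mouse models, whereas the labels name 1 strain and 1 treatment, and no label ties a library to an animal of its own, so a p-value here reflects the spread between libraries, which may be technical.

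Initiation is the step at which a ribosome finds a messenger RNA and its start codon. The eIF4 factors bind the cap and unwind the leader, eIF3 carries the small subunit, eIF2 brings the initiator transfer RNA, eIF1 and eIF1A hold the subunit in a scanning state, and eIF5 and eIF5B end the scan and join the large subunit. The liver exports most plasma proteins, and its initiation rate is known to be set mainly by phosphorylation of eIF2 and of the proteins that bind eIF4E, neither of which is read out by transcript levels.

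Start codon contexts are shown first because eIF1 is known to limit its own translation through the weak context of its start codon. In the lines that follow, taken from the GENCODE M21 transcripts and read from 6 bases before the start, capitals mark the start codon.
Eif1: tatcgtATGt
Eif1b: tgtcgcATGt
Eif5: gccaaaATGt
Eif4b: cccaacATGg
Eif4g2: gccaaaGTGg
Eif1 and Eif1b lacked a purine at position -3, which Eif5, Eif4b and Eif4g2 had. Eif4g2, which encodes an eIF4G relative without the part that binds eIF4E, carried the annotated GTG start and was the 1 tested member of 46 with a usable context that did not begin with ATG. A purine at position -3 stood in 40 of those 46 members (87.0%) and in 8725 of 10058 tested genes (86.7%), which are nearly equal shares.

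Across the family, changes went both ways and were small. By limma on log2(TPM + 1) with Benjamini-Hochberg adjustment over all genes tested, 20 of the 48 members passed an adjusted p of 0.05 (41.7%), beside 44.5% of all 11335 genes. Higher levels in SAP livers were called for 9 members (19.5% of all genes were called higher) and lower levels for 11 (25.0% of all genes were called lower). The members' share called was thus close to the background. The median log2 change, SAP minus control, was -0.02 over the members and -0.03 over all genes, and the median size of the change was 0.16 over the members and 0.26 over all genes. Past the threshold and at least 0.5 in size were 4 members, Eif1, Eif1a, Eif4b and Eif4ebp3, where 23.8% of all genes met both conditions.

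The summed level of the members was 2718 to 3041 TPM in SAP libraries and 2894 to 3037 TPM in control libraries, with means of 2917 ± 118 and 2988 ± 51.7 TPM (SD, n = 6 each). The ranges of that sum overlapped. SAP and control ranges did not overlap for 12 members, against 25.6% of all genes. SAP libraries lay above all control libraries for 5 members, Eif1a, Eif2b4, Eif3a, Eif3i and Eif3k (10.5% of all genes), and below all of them for 7, Eif1, Eif2a, Eif2s3x, Eif3e, Eif4a2, Eif4b and Eif4e2 (15.1% of all genes). The median coefficient of variation of a member was 10.2% in SAP libraries and 6.53% in control libraries, and over all genes tested it was 18% and 12.6%. Eif4ebp3 was the most variable member in each group, at 41.8% in SAP and 40.6% in control libraries.

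These directions depend on what is taken as the common scale. A list of 20 acute-phase genes and Alb held 22.2 to 35.1% of all TPM in SAP libraries and 8.11 to 9.30% in control libraries. Leaving these 21 genes out and rescaling the rest moved the median change of all genes by 0.28 on the log2 scale, to 0.25, and the median of the members by 0.33, to 0.31. With that rescaling 35 members were called higher and 2 lower, while 60.2% of all genes were called, 47.6% higher and 12.6% lower. With quantile normalization 20 members were called higher and 5 lower (48.9% of all genes called, 26.0% higher and 22.9% lower). With scaling factors like those of TMM 9 members were called higher and 8 lower (48.7% of all genes called, 24.6% higher and 24.1% lower). Under the deposited values and all these alternatives, 7 members were called higher, Eif1a, Eif2b4, Eif3a, Eif3k, Eif4a1, Eif4ebp1 and Eif5 (19.1% of all genes were higher in all 4 scalings), and 1 was called lower, Eif4b (12.4% of all genes were lower in all 4). Below, the change after the acute-phase genes were left out is given wherever it ended or turned a call, and also relative to the all-gene median where that helps. Calls gained under another scaling are given for some members only, so a member that did not pass below may have been called elsewhere. A factor common to all genes of a library cancels in a ratio of transcripts, apart from the added 1, whereas quantile normalization can move such a ratio.

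The libraries also differed in other measured ways. Xist was at 49.1 to 60.7 TPM in 7 libraries (SAP 10 and 12, control 3, 4, 6, 7 and 8) and at 4.59 to 17.1 TPM in the other 5 (SAP 11, 13, 14 and 15, control 5), and the nuclear transcript Malat1 was at 26.2 to 40.1 TPM in the first set and 2.76 to 8.19 TPM in the second. Hepatocyte markers summed to 35532 to 49219 TPM in SAP and 75541 to 87976 TPM in control libraries. Alb, left out with the acute-phase genes above, was 1 of these 6 markers. With and without Alb, the acute-phase list held 22.2 to 35.1% and 19.2 to 32.9% of TPM in SAP libraries. In control libraries these shares were 8.11 to 9.30% and 2.07 to 2.51%, so Alb weighed heavily in the hepatocyte sum. Neutrophil markers, 3 of 7 past the filter, summed to 35.4 to 108 TPM in SAP and 4.18 to 16.5 TPM in control libraries. Monocyte markers, 4 of 6 past the filter, summed to 60.3 to 85.4 TPM and 42.1 to 62.3 TPM. The summed ranges of the Kupffer cell, sinusoidal endothelial, stellate, cholangiocyte and lymphocyte lists overlapped between the groups, and acinar markers summed to at most 1.0 TPM in SAP and 10.2 TPM in control libraries, with Prss1 at 0 in every library. The part of these differences in the changes of initiation factors was not tested. In bulk liver fewer cells of a type cannot be told apart from less RNA, or less of the marker alone, per cell. In the high Xist libraries alone, 2 SAP and 5 control, each of the 20 called members kept its sign and 12 kept their call (6 higher and 6 lower, where 33.4% of all genes were called, 17.1% higher and 16.4% lower). With the Xist split as a term in the fit, 8 members were called higher and 8 lower (39.9% of all genes called, 20.5% higher and 19.4% lower), and 15 of the 20 calls were kept.

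**Figure D1:**
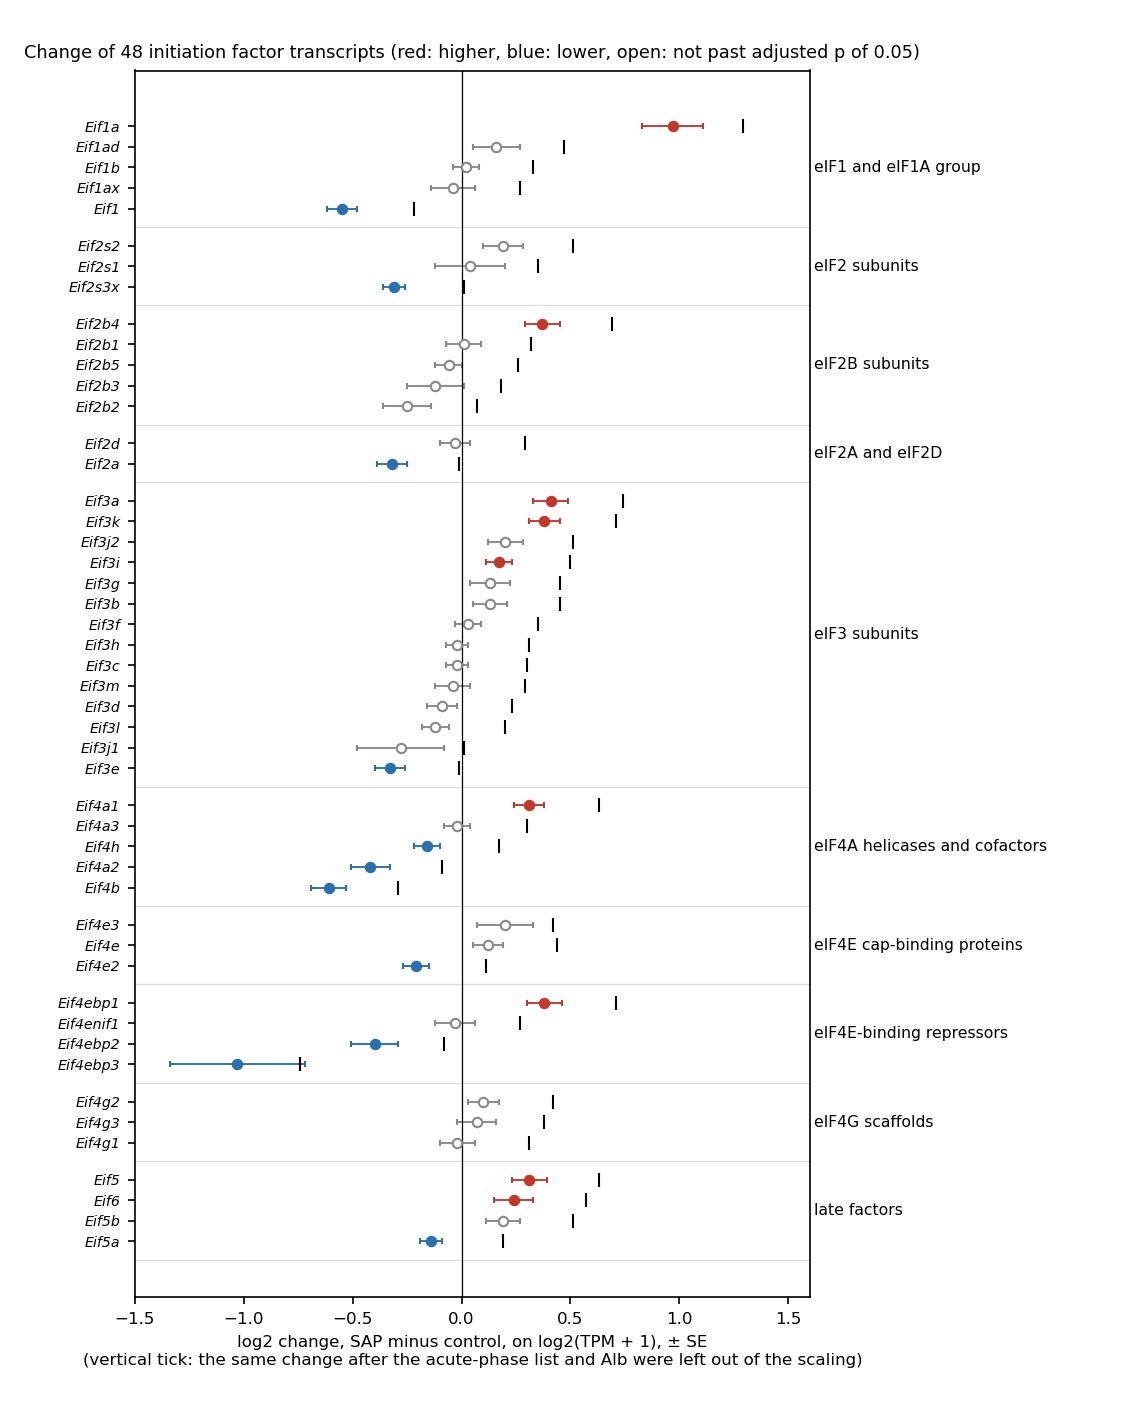
Log2 change of each of the 48 tested initiation factor transcripts, SAP minus control on log2(TPM + 1), with its standard error, by factor group. Red points were higher (9) and blue points lower (11) at an adjusted p under 0.05, open points (28) did not pass, and the vertical ticks, which give the change with the acute-phase list and Alb left out, lie to the right of the points, across 0 for Eif2s3x, Eif4e2, Eif4h and Eif5a among the called members.

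Of the factors that keep the small subunit scanning, Eif1 fell and Eif1a rose. Eif1, the gatekeeper of start codon choice (chr11:100319885-100322096 on the plus strand of GRCm38), was at 158, 177 and 202 TPM (lowest, median and highest of 6) in SAP livers and at 241, 260 and 275 TPM in control livers. Every SAP library lay below every control library. The log2 change was -0.55 ± 0.07 (SE; limma, adjusted p = 2.53e-05), a fall of the mean of 31.4%, and in the high Xist libraries alone it was -0.39 (limma, adjusted p = 0.00494). After quantile normalization it was -0.17 and no longer past the threshold (limma, adjusted p = 0.0824), and with the acute-phase genes left out it was -0.22 (limma, adjusted p = 0.0165), or -0.47 relative to the median of all genes.

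Eif1a, one of the genes for eIF1A, the partner of eIF1 in scanning, was at 24.7, 37.9 and 44.6 TPM (lowest, median and highest) in SAP livers and at 14.8, 18.2 and 20.8 TPM in control livers. SAP 12 was the lowest SAP library and still lay above every control library. The mean was 2.03 times that of control, with a log2 change of 0.97 ± 0.14 (limma, adjusted p = 9.72e-05) and of 0.85 in the high Xist libraries alone (limma, adjusted p = 0.0210). The call was kept in each of the 24 alternatives run. Eif1ax, the X-linked gene for eIF1A, was at 18.1, 21 and 25.6 TPM in SAP livers and at 19.1, 21.9 and 26.8 TPM in control livers. Its ranges overlapped and its log2 change was -0.04 ± 0.10 (limma, adjusted p = 0.761). The transcripts of Eif1a and Eif1ax shared 0 runs of 50 bases, so reads of that length can be assigned to one or the other.

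Eif1b, a close relative of Eif1, was at 22.1, 23.6 and 25.6 TPM in SAP livers and at 22.0, 23.1 and 25.6 TPM in control livers, which is nearly the same range. Its log2 change was 0.02 ± 0.06 (limma, adjusted p = 0.846). The decrease of Eif1 was thus not shared by Eif1b on the deposited scale, and the 2 transcripts shared 0 runs of 50 bases. Eif1ad, named for its eIF1A-like domain, averaged 13.3 ± 2.13 TPM in SAP and 11.8 ± 1.68 TPM in control livers (SD, n = 6 each) and did not pass (log2 change 0.16, limma, adjusted p = 0.273). With the acute-phase genes left out, Eif1ad, Eif1ax and Eif1b were each called higher, at 0.47, 0.27 and 0.33 on the log2 scale. Relative to the all-gene median, which that rescaling moved to 0.25, these changes were 0.21, 0.02 and 0.08.

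**Figure D2:**
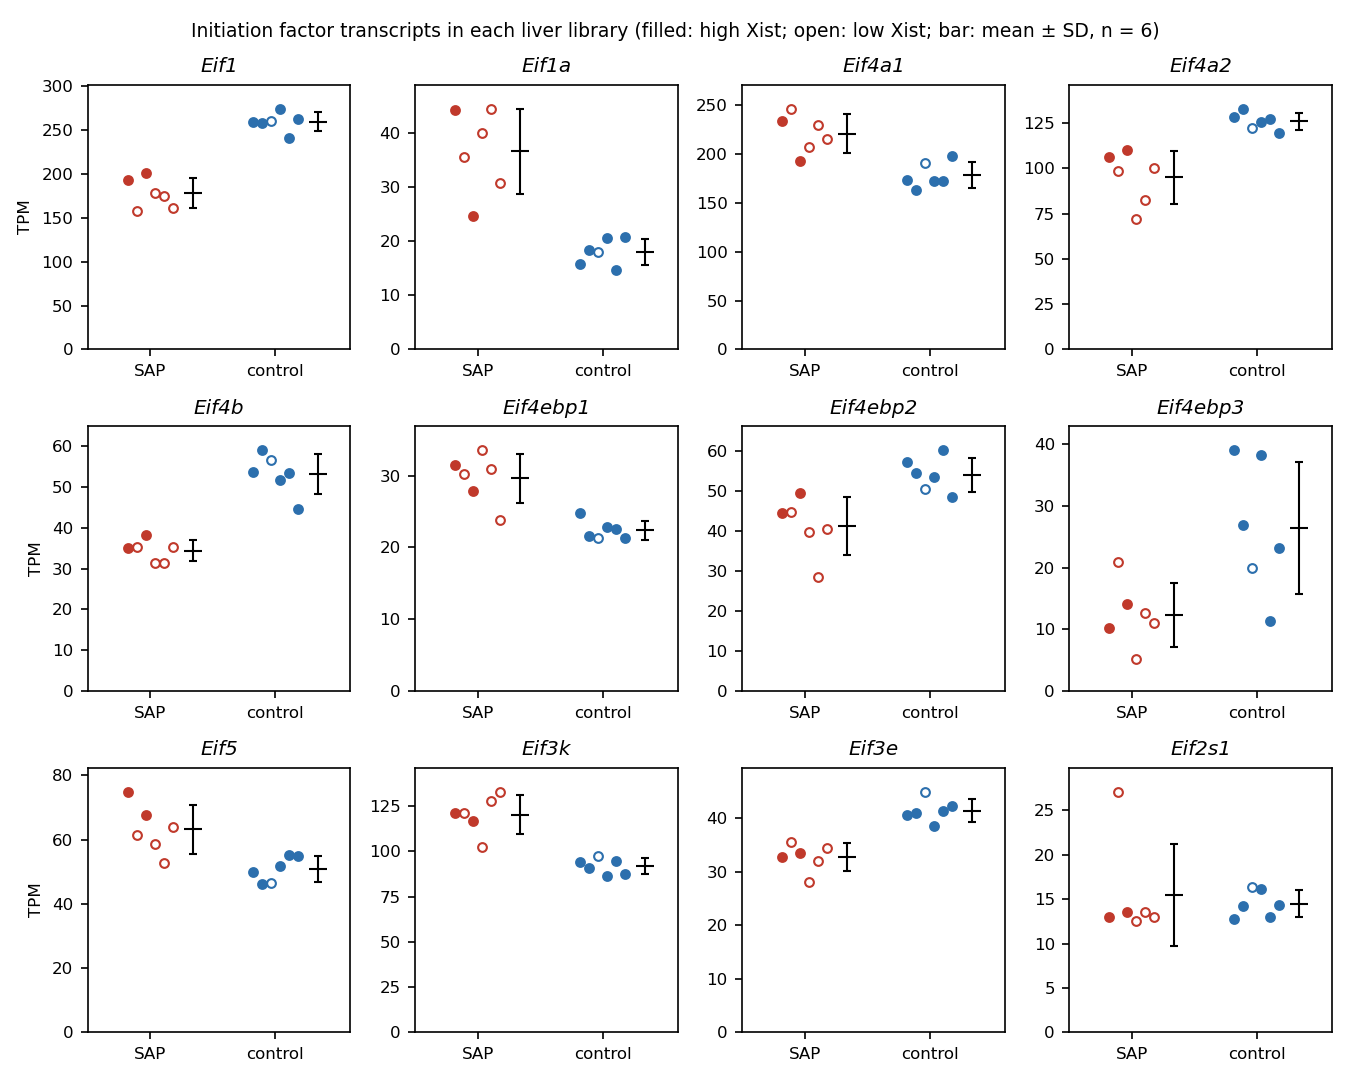
TPM of 12 initiation factor transcripts in each liver library, SAP left and control right, with the mean and SD of 6 libraries; filled points are high Xist and open points low Xist libraries. On the deposited scale SAP points lie below all control points for Eif1, Eif4a2, Eif4b and Eif3e and above all of them for Eif1a and Eif3k, and SAP 11 stands apart for Eif2s1 at 27.1 TPM.

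Of the eIF2 subunits, which carry the initiator transfer RNA as a complex with GTP, 1 of 3 tested was called. Eif2s3x, the gamma subunit that binds GTP, was at 35.8, 37.8 and 41.5 TPM (lowest, median and highest) in SAP livers and at 45.2, 48.1 and 49.3 TPM in control livers. The ranges did not overlap, and the log2 change was -0.31 ± 0.05 (limma, adjusted p = 4.04e-04) and -0.31 in the high Xist libraries alone (limma, adjusted p = 0.00845), but 0.01 with the acute-phase genes left out (limma, adjusted p = 0.915), or -0.25 relative to the all-gene median. Eif2s2, the beta subunit, averaged 27.4 ± 1.99 TPM in SAP and 24.0 ± 3.07 TPM in control livers (SD, n = 6 each) and did not pass (limma, adjusted p = 0.0846). It was called higher after quantile normalization (0.30, limma, adjusted p = 0.0173) and with the acute-phase genes left out (0.51, limma, adjusted p = 5.14e-04). Eif2s3y, the Y-linked copy, was at 0 in 10 of the 12 libraries and reached 0.10 TPM at most.

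Eif2s1, the alpha subunit on which the stress kinases act, was at 27.1 TPM in SAP 11, at 12.6 to 13.6 TPM in the 5 SAP libraries besides it, and at 12.8 to 16.4 TPM in control livers. One library thus stood apart, and the others of its group lay within or just below the control range. The log2 change was 0.04 ± 0.16 (limma, adjusted p = 0.863) with SAP 11 and -0.13 without it (limma, adjusted p = 0.223).

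Of the 5 subunits of eIF2B, the exchange factor that recharges eIF2, Eif2b4 was called higher and the other 4 did not pass. Eif2b4, the delta subunit, was at 24.4, 29.2 and 34.9 TPM in SAP livers and at 20.4, 22.2 and 23.3 TPM in control livers. No ranges overlapped, and the log2 change was 0.37 ± 0.08 (limma, adjusted p = 0.00273) and 0.34 in the high Xist libraries alone (limma, adjusted p = 0.0356). Eif2b4 overlaps Snx17 on the other strand, whose row was at 8.51 to 15.1 TPM, and whether the authors' counting used strand is unknown. Eif2b2, the beta subunit, averaged 26.8 ± 2.86 TPM in SAP and 32.3 ± 5.25 TPM in control livers (SD, n = 6 each; limma, adjusted p = 0.0761). Log2 changes of Eif2b1, Eif2b3 and Eif2b5 lay between -0.12 and 0.01, and the summed level of the 5 subunits was 99.6 TPM in SAP and 99.7 TPM in control livers on average. With the acute-phase genes left out, Eif2b1 and Eif2b5 were called higher, at 0.32 and 0.26, or 0.06 and 0.01 relative to the all-gene median.

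Eif2a and Eif2d encode proteins that can bring a transfer RNA to the ribosome without eIF2. Eif2a was at 13.0, 13.8 and 16.2 TPM in SAP livers and at 17.4, 17.8 and 19.5 TPM in control livers. SAP libraries all lay below the control range, and the log2 change was -0.32 ± 0.07 (limma, adjusted p = 0.00182) and -0.43 in the high Xist libraries alone (limma, adjusted p = 0.00430), but -0.01 with the acute-phase genes left out (limma, adjusted p = 0.891). Relative to the all-gene median, that last change of Eif2a was -0.27. Eif2a overlaps Serp1 on the other strand, which was at 68.4 to 176 TPM, so its level is uncertain. Eif2d averaged 24.8 ± 2.17 TPM in SAP and 25.4 ± 1.72 TPM in control livers (SD, n = 6 each; limma, adjusted p = 0.740).

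The eIF3 complex, the scaffold that holds the small subunit and messenger RNA together, had 14 tested genes, of which Eif3a, Eif3i and Eif3k were called higher, Eif3e was called lower and 10 did not pass on the deposited scale (12 higher and 0 lower with the acute-phase genes left out). Its summed level averaged 890 ± 51.4 TPM in SAP and 839 ± 14.5 TPM in control livers (SD, n = 6 each). Over all genes, 19.5% were called higher and 25.0% lower on the deposited scale, and 47.6% and 12.6% with the acute-phase genes left out. On the deposited scale the calls within this complex thus went both ways, as they did over all genes.

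Eif3k, a small peripheral subunit (chr7:28971372-28981864 on the minus strand of GRCm38), was at 102, 121 and 133 TPM in SAP livers and at 86.2, 92.5 and 97.2 TPM in control livers. The ranges did not overlap. The change was 0.38 ± 0.07 on the log2 scale (limma, adjusted p = 4.08e-04) and 0.38 in the high Xist libraries alone (limma, adjusted p = 0.00436), and the call was kept in each alternative run.

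Eif3a, the largest subunit and core of the complex, was at 44.1, 48.7 and 59.3 TPM in SAP livers and at 34.7, 37.4 and 40.4 TPM in control livers. SAP 12, the lowest SAP library, lay above control 6, the highest control. Its log2 change was 0.41 ± 0.08 (limma, adjusted p = 7.29e-04) and 0.40 in the high Xist libraries alone (limma, adjusted p = 0.0253). Eif3i, a subunit of the core with a propeller fold, was at 131, 133 and 164 TPM in SAP livers and at 115, 122 and 129 TPM in control livers. SAP 14 stood above the other SAP libraries. The log2 change of 0.17 ± 0.06 was just past the threshold (limma, adjusted p = 0.0469), and the call was kept in 10 of 25 settings counting the deposited one, with an adjusted p of up to 0.10 without 1 library and of 0.20 in the high Xist libraries alone.

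Eif3e, a subunit of the outer ring, was at 28.1, 33.1 and 35.6 TPM in SAP livers and at 38.5, 41.1 and 45.0 TPM in control livers. SAP libraries all lay below the control libraries. Eif3e changed by -0.33 ± 0.07 on the log2 scale (limma, adjusted p = 0.00104) and -0.29 in the high Xist libraries alone (limma, adjusted p = 0.0140), and it was -0.01 with the acute-phase genes left out (limma, adjusted p = 0.879), or -0.27 relative to the all-gene median.

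Among the 10 eIF3 genes that did not pass, log2 changes ran between -0.28 (Eif3j1) and 0.20 (Eif3j2), with adjusted p between 0.0548 and 0.785 by limma. Eif3j2, nearest to the threshold, was called higher under each of the other 3 scalings. Eif3c, a core subunit, was the steadiest member in SAP livers, at 54.4 ± 1.35 TPM against 55.4 ± 1.80 TPM in control livers (SD, n = 6 each). Eif3h, at 131 ± 5.00 TPM in SAP and 133 ± 4.27 TPM in control livers, was the most abundant of the 10. Eif3j1 and Eif3j2 encode copies of the loosely bound j subunit, and 90.8% of the 50-base runs of Eif3j2 also occur in Eif3j1, so how reads were split between these rows is uncertain.

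Promoters are shown for the eIF4A pair, whose members moved apart, and for Eif3k, since the E-box CACGTG, bound by Myc and related factors, is a known feature of translation genes. The 250 bases before the RefSeq start on GRCm38.p6 are written 5′ to 3′ on the gene's own strand, with CACGTG in capitals, for Eif4a1 (chr11:69672424-69672673, minus strand), Eif4a2 (chr16:23107218-23107467, plus strand) and Eif3k (chr7:28981889-28982138, minus strand).
Eif4a1: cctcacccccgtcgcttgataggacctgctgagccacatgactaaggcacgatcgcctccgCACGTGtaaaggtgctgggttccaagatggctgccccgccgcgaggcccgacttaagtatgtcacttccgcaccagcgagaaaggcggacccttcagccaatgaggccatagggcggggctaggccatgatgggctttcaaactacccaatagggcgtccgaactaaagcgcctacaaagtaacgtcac
Eif4a2: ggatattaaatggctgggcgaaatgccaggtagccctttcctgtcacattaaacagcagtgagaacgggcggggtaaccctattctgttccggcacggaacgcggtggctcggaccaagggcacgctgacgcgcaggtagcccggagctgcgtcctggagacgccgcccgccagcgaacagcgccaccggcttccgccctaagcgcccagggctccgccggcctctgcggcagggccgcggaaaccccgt
Eif3k: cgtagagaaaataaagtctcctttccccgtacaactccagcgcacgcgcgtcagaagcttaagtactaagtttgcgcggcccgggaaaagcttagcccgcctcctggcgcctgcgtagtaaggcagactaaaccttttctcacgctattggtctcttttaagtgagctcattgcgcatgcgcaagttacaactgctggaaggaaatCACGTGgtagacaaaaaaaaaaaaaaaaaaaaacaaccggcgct
Eif4a1 and Eif3k held the motif and Eif4a2 did not. These promoters were picked with the changes of the genes known, and a link between the motif and the changes was not tested. CACGTG, which reads the same on both strands, stood in 6 of the 37 tested members with a promoter entry (16.2%; Eif1b, Eif3f, Eif3k, Eif4a1, Eif4g1 and Eif4h), in 8.68% of the 8663 tested genes with one and in 6.05% of all 27025 promoters. Of these 6 genes, on the deposited scale, Eif3k and Eif4a1 were called higher, Eif4h was called lower, and Eif1b, Eif3f and Eif4g1 did not pass. With the acute-phase genes left out all 6 were called higher, as were 47.6% of all genes. TGATGNAA, the core of the site bound by ATF4 with C/EBP factors, searched on both strands, stood in 1 member promoter, that of Eif2s3x (2.70%, against 1.96% of tested genes), and the cyclic AMP response element TGACGTCA stood in 0 of the 37 (2.71% of tested genes). The endoplasmic reticulum stress response element, searched by its full consensus on both strands, stood in 0 of the 37 as well (0.173% of tested genes).

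The eIF4A helicases unwind the leader, and the 2 closely related genes for them changed in opposite directions on the deposited scale. Eif4a1 (chr11:69666936-69672423 on the minus strand) was at 193, 223 and 247 TPM in SAP livers and at 163, 173 and 198 TPM in control livers. SAP 12 fell inside the control range and the other 5 SAP libraries lay above it. The log2 change was 0.31 ± 0.07 (limma, adjusted p = 0.00369), and in the high Xist libraries alone it was 0.27 and did not pass (limma, adjusted p = 0.0741).

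Eif4a2 (chr16:23107444-23114136 on the plus strand) was at 71.9, 99.3 and 110 TPM in SAP livers and at 119, 126 and 133 TPM in control livers. SAP 13 and SAP 14 were the lowest, and all 6 SAP libraries lay below the controls. Its log2 change was -0.42 ± 0.09 (limma, adjusted p = 0.00277) and -0.23 in the high Xist libraries alone (limma, adjusted p = 0.0349), whereas it did not pass after quantile normalization (-0.10, limma, adjusted p = 0.363) or with the acute-phase genes left out (-0.09, limma, adjusted p = 0.362). Relative to the all-gene median, the change with those genes left out was -0.35 for Eif4a2 and 0.38 for Eif4a1.

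The transcripts of Eif4a1 and Eif4a2 shared 0 runs of 50 bases. Eif4a1 shared 24.2% of its runs with the processed copy Eif4a-ps4, whose row varied between 0.10 and 36.5 TPM, so how reads were divided between these rows is uncertain. Eif4a3, the helicase of the exon junction complex, averaged 38.3 ± 2.69 TPM in SAP and 38.9 ± 1.52 TPM in control livers (SD, n = 6 each; limma, adjusted p = 0.790), and its copies Eif4a3l1 and Eif4a3l2 were at 0 in all 12 libraries.

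Eif4b and Eif4h stimulate eIF4A. Eif4b (chr15:102073773-102097173 on the plus strand), a target of S6 kinase, was at 31.3, 35.0 and 38.3 TPM in SAP livers and at 44.5, 53.5 and 59.0 TPM in control livers. The gap between the groups was wide, with the highest SAP library, SAP 12, below the lowest control, control 8. Eif4b changed by -0.61 ± 0.08 on the log2 scale (limma, adjusted p = 2.66e-05), a fall of the mean of 35.3%. It was -0.50 in the high Xist libraries alone (limma, adjusted p = 0.00991) and -0.29 with the acute-phase genes left out (limma, adjusted p = 0.00250), and Eif4b was called lower in each alternative run.

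Eif4h averaged 76.0 ± 6.20 TPM in SAP and 84.8 ± 2.23 TPM in control livers (SD, n = 6 each), and its log2 change of -0.16 ± 0.06 (limma, adjusted p = 0.0481) turned to 0.17 and was called higher with the acute-phase genes left out (limma, adjusted p = 0.0120). Relative to the all-gene median, which that rescaling moved to 0.25, the change of Eif4h was -0.09. The call of a lower level was kept in 6 of 25 settings, so the direction of Eif4h rests on the scale.

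Of the proteins that bind the cap, Eif4e2 was called lower and Eif4e and Eif4e3 did not pass. Eif4e, the cap-binding factor itself, was at 30.1, 31.1 and 33.3 TPM in SAP livers and at 25.9, 28.4 and 32.7 TPM in control livers. The ranges overlapped, with a log2 change of 0.12 ± 0.07 (limma, adjusted p = 0.166). Eif4e was called higher after quantile normalization (0.25, limma, adjusted p = 0.0137) and with the acute-phase genes left out (0.44, limma, adjusted p = 2.30e-04). Eif4e2, a cap-binding relative that represses translation of its targets, was at 41.2, 43.4 and 47.7 TPM in SAP livers and at 47.9, 50.6 and 56.8 TPM in control livers. The groups touched without overlapping, and the log2 change of -0.21 ± 0.06 (limma, adjusted p = 0.0129) was -0.14 in the high Xist libraries alone (limma, adjusted p = 0.228). It turned to 0.11 with the acute-phase genes left out (limma, adjusted p = 0.136), or -0.14 relative to the all-gene median. Eif4e3 averaged 1.53 ± 0.431 TPM in SAP and 1.20 ± 0.329 TPM in control livers (SD, n = 6 each; limma, adjusted p = 0.244), the lowest level of the tested members, and Eif4e1b, known as an oocyte form, was at 0 in all 12 libraries.

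The 3 eIF4E-binding proteins, which block eIF4E until mTORC1 phosphorylates them, did not move together. Eif4ebp1 (chr8:27260329-27276674 on the plus strand) was at 23.8, 30.6 and 33.6 TPM in SAP livers and at 21.3, 22.1 and 24.8 TPM in control livers. SAP 15 fell below control 3, and the other 5 SAP libraries lay above the control range. Eif4ebp1 changed by 0.38 ± 0.08 on the log2 scale (limma, adjusted p = 0.00163) and 0.38 in the high Xist libraries alone (limma, adjusted p = 0.0138), and the call was kept in each alternative run.

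Eif4ebp2 was at 28.5, 42.5 and 49.6 TPM in SAP livers and at 48.6, 54.1 and 60.3 TPM in control livers. SAP 14 was the lowest and SAP 12 alone reached into the control range. The log2 change was -0.40 ± 0.11 (limma, adjusted p = 0.0109), but -0.22 in the high Xist libraries alone (limma, adjusted p = 0.119) and -0.21 after quantile normalization (limma, adjusted p = 0.0667). With the acute-phase genes left out it was -0.08 (limma, adjusted p = 0.483), or -0.33 relative to the all-gene median.

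Eif4ebp3 was at 5.21, 11.8 and 20.8 TPM in SAP livers and at 11.4, 25.1 and 39.1 TPM in control livers. The ranges overlapped, since control 7 was at 11.4 TPM and SAP 11 at 20.8 TPM. Eif4ebp3 overlaps the protein-coding gene AC115631.1 on the same strand, so its level is uncertain. Its log2 change of -1.03 ± 0.31 (limma, adjusted p = 0.0156) was the largest in size among the members, with the widest error. It was also -1.03 in the high Xist libraries alone (limma, adjusted p = 0.0973) and -0.74 with the acute-phase genes left out (limma, adjusted p = 0.0612), and neither passed. Eif4enif1, the transporter of eIF4E, averaged 9.13 ± 1.22 TPM in SAP and 9.31 ± 0.826 TPM in control livers (SD, n = 6 each; limma, adjusted p = 0.814). On the deposited scale the repressors summed to 92.4 ± 9.93 TPM in SAP and 112 ± 12.0 TPM in control livers (SD, n = 6 each). The cap-binding proteins summed to 77.0 ± 2.62 and 81.3 ± 3.25 TPM (SD, n = 6 each). Of these latter sums Eif4e2, itself a repressor, averaged 44.2 and 51.2 TPM. The sums therefore do not set repressors against their target, and the ratio Eif4ebp1/Eif4e, given below, was higher in SAP livers.

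No eIF4G gene passed on the deposited scale, while all 3 were called higher with the acute-phase genes left out, at 0.31 to 0.42 on the log2 scale. Relative to the all-gene median these changes were 0.05 for Eif4g1, 0.17 for Eif4g2 and 0.13 for Eif4g3. Eif4g1, the main scaffold between the cap and eIF3, was at 117, 146 and 156 TPM in SAP livers and at 134, 141 and 152 TPM in control livers (log2 change -0.02 ± 0.08, limma, adjusted p = 0.861). Eif4g2, introduced above by its GTG start, was at 136, 158 and 168 TPM in SAP livers and at 133, 148 and 155 TPM in control livers (log2 change 0.10 ± 0.07, limma, adjusted p = 0.254). Eif4g3 was at 12.1, 15.6 and 17.6 TPM in SAP livers and at 12.6, 14.3 and 15.2 TPM in control livers (log2 change 0.07 ± 0.09, limma, adjusted p = 0.576). The ranges of each gene overlapped. SAP 10, SAP 11 and SAP 15 lay above every control library for Eif4g2 and Eif4g3, as did SAP 12 for Eif4g3 and SAP 11 for Eif4g1. SAP 14 lay below every control library for Eif4g1 and Eif4g3, as did SAP 13 for Eif4g1. After quantile normalization Eif4g1 (0.31, limma, adjusted p = 6.61e-04) and Eif4g2 (0.45, limma, adjusted p = 6.24e-05) were called higher. In every library Eif4g3 was far below the other genes.

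Of the factors that act after the start codon is found, Eif5 and Eif6 were called higher, Eif5a was called lower and Eif5b did not pass. Eif5, which makes eIF2 hydrolyse its GTP, was at 52.7, 62.8 and 74.9 TPM in SAP livers and at 46.0, 50.8 and 55.2 TPM in control livers. SAP 14 fell inside the control range and the other 5 lay above it. Eif5 changed by 0.31 ± 0.08 on the log2 scale (limma, adjusted p = 0.00931) and 0.46 in the high Xist libraries alone (limma, adjusted p = 0.00718), and the call was kept in each alternative run.

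Eif5a, a hypusine-bearing protein that helps the ribosome through elongation and termination, was the most abundant member, at 416, 445 and 473 TPM in SAP livers and at 464, 492 and 512 TPM in control livers. The ranges overlapped at their edge. Its log2 change of -0.14 ± 0.05 was barely past the threshold (limma, adjusted p = 0.0476) and turned to 0.19, called higher, with the acute-phase genes left out (limma, adjusted p = 0.0247), or -0.07 relative to the all-gene median. Eif5a2, a second gene for eIF5A, did not exceed 0.08 TPM. Eif6, which keeps the large subunit from joining too early, averaged 65.6 ± 11.0 TPM in SAP and 54.7 ± 1.46 TPM in control livers (SD, n = 6 each), with a log2 change of 0.24 ± 0.09 (limma, adjusted p = 0.0480) whose call was kept in 9 of 25 settings. Eif5b, the GTPase of subunit joining, averaged 14.9 ± 1.31 TPM in SAP and 12.9 ± 1.22 TPM in control livers (SD, n = 6 each), with a log2 change of 0.19 that did not pass (limma, adjusted p = 0.0591). It was called higher under the other 3 scalings, with an adjusted p by limma of 0.00701 with TMM-like factors, 0.00643 after quantile normalization and 8.20e-05 with the acute-phase genes left out. Eif2c5, the remaining member by name, is annotated as a noncoding RNA and was at 0 in all 12 libraries.

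**Figure D3:**
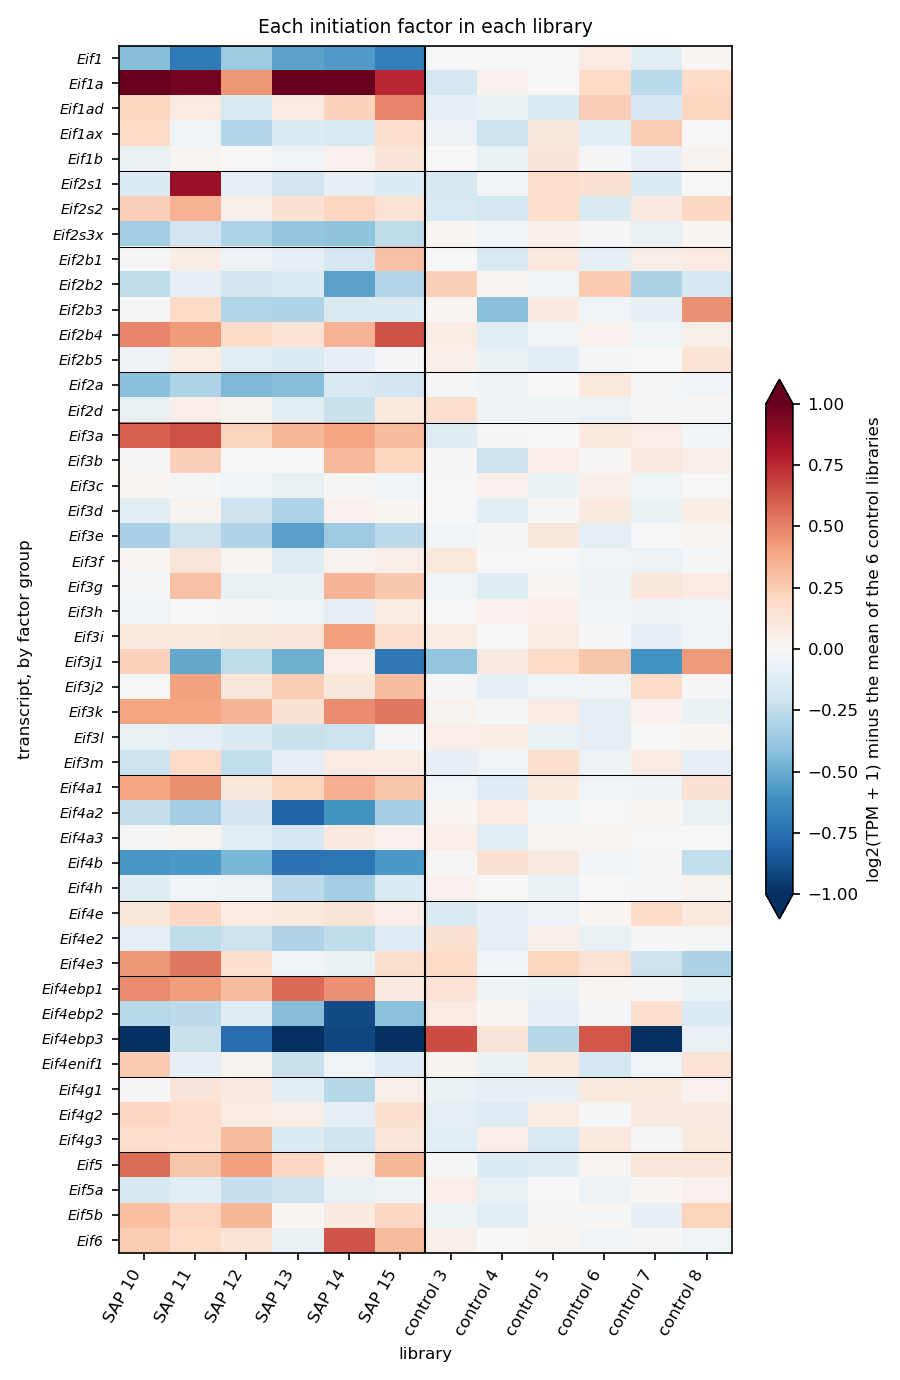
Log2(TPM + 1) of each tested initiation factor (rows, by factor group) in each of the 12 libraries (columns, SAP left of the line and control right), minus the mean of the 6 control libraries, with the colour scale ending at 1 in each direction. On the deposited scale the SAP columns are red for Eif1a and blue for Eif1 and Eif4b throughout, and SAP 11 alone is deep red for Eif2s1.

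Ratios within a library show how paired transcripts shifted against each other. Most pairs were relatives, whereas Eif4ebp1/Eif4e set a repressor against its target. Eif5a and Eif5 share a name but encode unlike proteins. For 9 pairs, log2 ratios of TPM + 1 were compared between the groups by exact two-sided permutation tests, adjusted over the pairs; the smallest p that 6 libraries against 6 can give is 0.00216. The members' results were known when the pairs were chosen, so these tests describe the same differences again rather than add to them. Rescaling of the ratios was tried after the data were seen. The 7 ratios that passed kept their direction and call after quantile normalization. They also did so with TMM-like factors and with the acute-phase genes left out. Those 2 rescalings apply a common factor to a library, which cancels in a ratio apart from the added 1, so they could hardly have changed it. Quantile normalization moved Eif1/Eif1b and Eif4g1/Eif4g3 the most among the 9.

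The ratio Eif4a1/Eif4a2 was 1.74 to 2.85 in SAP livers and 1.22 to 1.66 in control livers, with means of 2.36 ± 0.42 and 1.42 ± 0.16 (SD, n = 6 each). Every SAP library was above every control library, and the log2 ratio was higher by 0.72 (exact permutation test, adjusted p = 0.00390). In each library Eif4a1 was thus the more abundant helicase, and more so in SAP livers. The ratio Eif1/Eif1b was 6.11 to 8.39 in SAP livers and 9.83 to 11.51 in control livers, a log2 difference of -0.56 (exact permutation test, adjusted p = 0.00390) and of -0.29 after quantile normalization (exact permutation test, adjusted p = 0.0306). The ratio Eif1ax/Eif1a was 0.46 to 0.82 in SAP livers and 1.0 to 1.77 in control livers, a log2 difference of -1.01 (exact permutation test, adjusted p = 0.00390). Eif1a was therefore the more abundant eIF1A transcript in all 6 SAP libraries, whereas Eif1ax was the more abundant in 5 of the 6 control libraries and about equal to it in control 6.

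The ratio Eif4ebp1/Eif4ebp2 was 0.57 to 1.09 in SAP livers and 0.38 to 0.45 in control livers, a log2 difference of 0.78 (exact permutation test, adjusted p = 0.00390). Eif4ebp2 was the more abundant of that pair in 11 of the 12 libraries, SAP 14 being the exception. The ratio Eif5a/Eif5 was 5.78 to 8.64 in SAP livers and 8.84 to 10.31 in control livers, a log2 difference of -0.45 (exact permutation test, adjusted p = 0.00390). The groups did not overlap for these 2 pairs either.

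The ratio Eif4e/Eif4e2 was 0.65 to 0.78 in SAP livers and 0.46 to 0.65 in control livers, touching at their edge, with a log2 difference of 0.32 (exact permutation test, adjusted p = 0.00649). The ratio Eif4ebp1/Eif4e was 0.80 to 1.08 in SAP livers and 0.70 to 0.96 in control livers, a log2 difference of 0.27 with overlapping ranges (exact permutation test, adjusted p = 0.0306), and the adjusted p rose to 0.0612 without SAP 10, SAP 13, SAP 14 or control 7, to 0.0536 without control 8 and to 0.0501 without control 6. The eIF4G pairs did not pass. Eif4g1/Eif4g2 averaged 0.90 ± 0.05 in SAP and 0.98 ± 0.06 in control livers (n = 6 each, SD; by an exact permutation test, adjusted p = 0.0536), though it passed without SAP 12 (0.0278), without control 5 (0.0167) or after quantile normalization (0.0390). Eif4g1/Eif4g3 averaged 8.94 ± 0.54 in SAP and 9.51 ± 0.62 in control livers (n = 6 each, SD; by an exact permutation test, adjusted p = 0.130), and passed without control 4 (0.0390). Its log2 difference of -0.09 turned to 0.19 after quantile normalization and passed (exact permutation test, adjusted p = 0.00779).

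**Figure D4:**
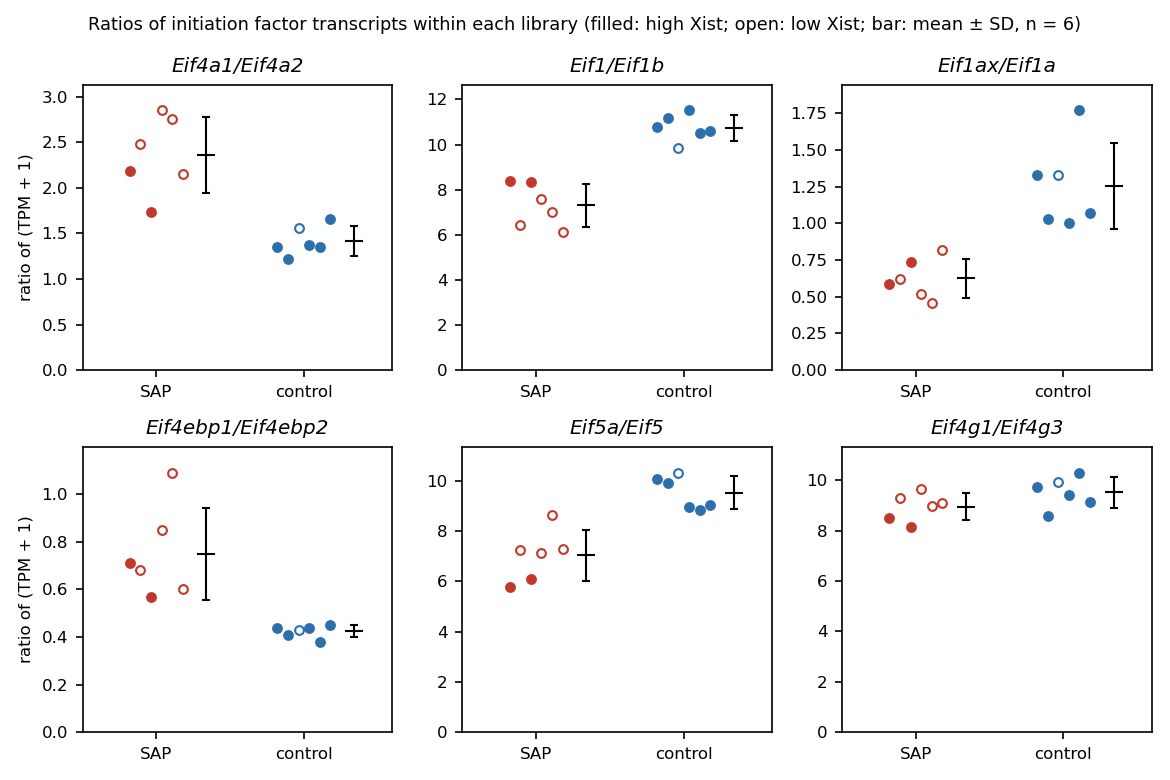
Ratios of (TPM + 1) for 6 pairs of initiation factor transcripts in each library, SAP left and control right, with the mean and SD of 6 libraries; filled points are high Xist and open points low Xist libraries. The groups do not overlap for 5 pairs, with SAP above control for Eif4a1/Eif4a2 and Eif4ebp1/Eif4ebp2, and they overlap for Eif4g1/Eif4g3.

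The genes that act on these factors were read from 4 lists chosen with earlier results of these data known. Each count is to be read beside the 19.5% of all genes called higher and 25.0% called lower, or 47.6% and 12.6% with the acute-phase genes left out. Of 6 eIF2 kinase and phosphatase genes, 2 rose, 1 fell and 3 did not pass (5 higher and 0 lower with the acute-phase genes left out). Eif2ak3, the kinase PERK of the endoplasmic reticulum, was at 6.44 to 13.5 TPM in SAP livers and at 4.48 to 5.97 TPM in control livers, with a log2 change of 0.77 ± 0.15 (limma, adjusted p = 9.59e-04). Eif2ak4, the amino acid sensor GCN2, averaged 2.15 ± 0.394 TPM in SAP and 3.21 ± 0.314 TPM in control livers (SD, n = 6 each), with a log2 change of -0.43 (limma, adjusted p = 0.00352) that did not pass with the acute-phase genes left out (-0.20). Ppp1r15b, the constitutive subunit of the eIF2 phosphatase, averaged 28.4 ± 3.47 TPM in SAP and 22.1 ± 1.59 TPM in control livers (SD, n = 6 each; log2 change 0.34, limma, adjusted p = 0.00560).

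A list of 15 genes covered the mTORC1 axis, which releases eIF4E from its binding proteins, and also Mknk1 and Mknk2, which are not part of mTORC1. Of the 15, 2 rose, 4 fell and 9 did not pass on the deposited scale, with Mknk1 among the rises and Mknk2 among the falls. With the acute-phase genes left out 7 were higher and 2 lower. Mknk2, a kinase that phosphorylates eIF4E, was at 30.7 to 50.6 TPM in SAP livers and at 71.2 to 95.3 TPM in control livers, with a log2 change of -0.99 ± 0.12 (limma, adjusted p = 1.57e-05). The groups were far apart, and with the acute-phase genes left out Mknk2 was still called lower, at -0.67. Its relative Mknk1 was at 10.8 to 14.7 TPM in SAP livers and at 6.36 to 10.1 TPM in control livers, and rose (log2 change 0.46, limma, adjusted p = 0.00420). Mknk1 was named after its values were seen. Rps6kb1, the S6 kinase that acts on eIF4B, averaged 5.75 ± 0.443 TPM in SAP and 3.88 ± 0.525 TPM in control livers (SD, n = 6 each; log2 change 0.47, limma, adjusted p = 5.74e-04). Deptor, an inhibitor bound to mTOR, averaged 10.3 ± 2.71 TPM in SAP and 16.2 ± 1.12 TPM in control livers (SD, n = 6 each; log2 change -0.64, limma, adjusted p = 0.00320).

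Of 11 poly(A)-binding and auxiliary proteins, 2 rose, 1 fell and 8 did not pass. With quantile normalization 5 were higher and 1 lower, and with the acute-phase genes left out 10 were higher and 0 lower. Paip1, which stimulates initiation through the poly(A)-binding protein, averaged 33.3 ± 1.92 TPM in SAP and 26.6 ± 2.03 TPM in control livers (SD, n = 6 each; log2 change 0.32, limma, adjusted p = 0.00151). Paip2b, which inhibits that protein, averaged 12.0 ± 1.45 TPM in SAP and 8.64 ± 0.73 TPM in control livers (SD, n = 6 each; log2 change 0.43, limma, adjusted p = 0.00111). Both members that rose thus act on the same protein with opposite known effects. Mcts1, a partner of Denr in reinitiation, fell to 23.1 ± 2.76 TPM in SAP livers, against 31.0 ± 1.07 TPM in control livers (SD, n = 6 each; log2 change -0.42, limma, adjusted p = 5.08e-04), and did not pass with the acute-phase genes left out (-0.10).

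Of 8 elongation and release genes, 5 rose, 1 fell and 2 did not pass (6 higher and 0 lower with the acute-phase genes left out). Eef1a1, which delivers aminoacyl transfer RNA, was at 3730 to 4117 TPM in SAP livers and at 2810 to 3535 TPM in control livers, with a log2 change of 0.34 (limma, adjusted p = 0.00145) that was 0.13 and did not pass after quantile normalization (limma, adjusted p = 0.317). Eef2, the translocase, was at 467 to 529 TPM in SAP livers and at 576 to 755 TPM in control livers, with a log2 change of -0.43 (limma, adjusted p = 1.86e-04) that did not pass with the acute-phase genes left out (-0.10). Eef1g, a subunit of the exchange factor of eEF1A, averaged 142 ± 8.83 TPM in SAP and 114 ± 10.6 TPM in control livers (SD, n = 6 each; log2 change 0.33, limma, adjusted p = 0.00219).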

How the data were processed

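Liver RNA was sequenced in 6 SAP and 6 control libraries, prepared from Trizol extracts by standard Illumina methods per the labels. The deposited table was read as TPM, a length-scaled abundance, since no header names the unit, from library sums of 993412 to 995793 and from values of 2 decimals that were not multiples of one step. TPM keeps no depth, so depth is unknown and counting intervals are not given. EdgeR is named, per the submitters' processing notes, without version or role, and the aligner, build, annotation and strand handling are not stated.

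Limma 3.58.1 (R 4.3.3, with trend) was fitted to log2(TPM + 1) of genes at 1 TPM or more in 6 or more libraries, SAP against control without covariates, two-sided, at an adjusted p of 0.05. Log2 changes understate those of low genes. Ratios used exact permutation tests (scipy 1.17.1); figures used matplotlib 3.10.9. Where symbols repeated, the row with the highest median was kept. The fit was tested on simulated data. Members, lists, pairs and alternatives were chosen with earlier results of these data known. Named with values per group were members past the threshold with a change of at least 0.5, the member with the smallest adjusted p in each factor group, the genes of the pairs and 3 genes per list; others are named by range or count, or after their values were seen. Of 54 members, 52 symbols were in GENCODE M21 and 41 had a RefSeq promoter. Alternatives were other scalings, filters, a pseudocount of 0.1, limma without trend or with a robust step, the Xist split, and leaving libraries out; the other scalings of the ratios were added after the data were seen.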

Additional observations from a re-analysis of the deposited data

Results flagged for a closer look

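Each group of 6 values was searched for a library that stood apart from the other 5 by more than 0.625 of the group's range, Dixon's 95% critical value. Among 140 groups, made of the tested members, the pairs' ratios and the named pathway genes, 9 were found, and about 1 in 20, or 7.0, would be found by chance. The widest gap was that of Eif2s1, the alpha subunit of eIF2, at 27.1 TPM in SAP 11 and 12.56 to 13.57 TPM in the other SAP libraries, which is 0.901 of the range. Eif3i was at 163.6 TPM in SAP 14 and at 131.29 to 137.78 TPM in the other SAP libraries. Mknk1, a kinase of eIF4E, was at 14.66 TPM in SAP 10 and at 10.81 to 11.81 TPM in the other SAP libraries.

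The other 6 concerned single control libraries. Control 3 was the highest for Eif2d, at 28.75 TPM, and for Eif3f, at 49.42 TPM. Eif2a reached 19.47 TPM in control 6, Eif3j2 17.77 TPM in control 7 and Eif5b 15.21 TPM in control 8. Eif3b was low in control 4, at 51.52 TPM.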

How the results depend on the processing

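Members called higher numbered 20 with quantile normalization and 35 with the acute-phase list left out, and members called lower 5 and 2, against 9 and 11 as deposited. Over all genes, leaving that list out gave 5394 higher and 1427 lower, or 79.1% of calls higher, against 43.9% as deposited, 53.2% with quantile normalization and 50.5% with TMM-like scaling. It turned the log2 change of Eif2s3x to 0.01, of Eif4e2 to 0.11, of Eif4h to 0.17 and of Eif5a to 0.19. Relative to the all-gene median under that rescaling, these changes were -0.25, -0.14, -0.09 and -0.07. Quantile normalization turned Eif4h to 0.10 and Eif5a to 0.12. Of the 28 members that did not pass, 14 changed sign with the list left out, 11 with quantile normalization and 8 with TMM-like scaling. Rescaling of the ratios was added after the data were seen. Quantile normalization turned Eif4g1/Eif4g3 to 0.19 (adjusted p = 0.00779), brought Eif4g1/Eif4g2 past the threshold at -0.14 and moved Eif1/Eif1b to -0.29, and the other 6 kept their direction and call.

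In the high Xist libraries alone, 6 members and 1847 genes were called lower. There the log2 ratios were 0.50 for Eif4a1/Eif4a2, -0.39 for Eif1/Eif1b, -0.88 for Eif1ax/Eif1a, -0.66 for Eif5a/Eif5, 0.59 for Eif4ebp1/Eif4ebp2, 0.23 for Eif4e/Eif4e2 and 0.29 for Eif4ebp1/Eif4e. Each kept its direction, and none passed after adjustment over 9 pairs (exact permutation test, adjusted p of 0.122 to 0.190). With 2 against 5 libraries this two-sided test cannot reach a p of 0.05, so the lack of a call is not informative.

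With each library left out in turn, 16 of the 20 calls were kept, the exceptions being Eif3i, Eif4h, Eif5a and Eif6. Members higher ranged between 7 and 9, and members lower between 9 and 10. Ratios without 1 library ranged between 0.23 and 0.33 for Eif4ebp1/Eif4e, -0.15 and -0.09 for Eif4g1/Eif4g2, and -0.12 and -0.06 for Eif4g1/Eif4g3. Calls kept in every alternative run were 7, those of Eif1a, Eif2b4, Eif3a, Eif3k, Eif4b, Eif4ebp1 and Eif5. The share of all genes' calls kept in these same ways was not worked out. The counts of kept calls therefore do not show whether members held their calls better than other genes.

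Causes were not tested. No paired analysis was possible because the SAP libraries (10 to 15) and the control libraries (3 to 8) share no replicate number. Alternatives for counts were not run on TPM, and TPM gives no depth, so the limit that depth sets on Eif4e3 and the members near 0 is unknown.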

Other observations

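Rows named as pseudogenes were left out of the family. Of the 10, Eif4a-ps4 was the 1 row above 1 TPM, at 0.10 TPM in SAP 10, 6.91 to 14.0 TPM in SAP 11 to SAP 14 and 36.5 TPM in SAP 15, and at 15.3 to 33.2 TPM in the control libraries. The SAP libraries thus spanned a wider range than the controls, on both sides. The other 9 rows did not exceed 0.52 TPM.

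Overlaps on the other strand with a row that exceeded 1 TPM in every library, beyond those of Eif2a and Eif2b4, were those of Eif1ad with Banf1 (33.3 to 50.9 TPM), Eif4enif1 with Drg1 (28.4 to 39.2 TPM), Eif2d with Rassf5 (1.23 to 3.98 TPM), Eif3j1 with Spg11 (1.93 to 3.20 TPM), Eif5b with Rev1 (1.59 to 5.46 TPM) and Eif4a2 with Rfc4 (2.16 to 4.64 TPM). These values are given because strand handling is unknown.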
